A study of Mus musculus with 2 samples.

Results

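The collagen genes were compared between hair follicles of wild-type mice and of dnFGFR2-IIIb transgenic mice, in a study of the targets of signalling through FGFR2-IIIb, the epithelial splice form of fibroblast growth factor receptor 2. Members were all genes whose only symbol in the array annotation is Col, a number, the letter a and a number, with the exception of Col17a1. This gave 41 of the 18193 genes on the arrays, read by 81 probe sets, of which 11 encode fibrillar collagens, 9 encode collagens of the basement membrane or its anchorage and 21 encode other types. Each gene is given by its brightest probe set, the one with the highest mean signal over both arrays. No ratio was used to choose the members.

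There were 2 arrays of one mouse design, 1 per genotype, each hybridised with RNA from about 300 follicles pooled from 3 mice of separate litters at postnatal day 10. The wild-type pool carried no transgene. The transgenic pool came from mice with dnFGFR2-IIIb, and the promoter that drives this transgene is not given in the sources used here. Signals are linear intensities in arbitrary units, and each gene's value is its signal on 1 array, so there is no replicate spread, no test and no p-value. As a guide to technical error, the log2 ratios of different probe sets of the same gene had an SD of 0.52 for genes in the dim tertile of signal (under 63.9), 0.41 in the middle tertile and 0.36 in the bright tertile (over 237). This spread leaves out the differences between mice. The pools also differed in sex-linked RNA, as given below, so differences of sex and of genotype cannot be told apart for any gene. A floor at a signal of 10.5 marks the 40th percentile of both arrays, and the brightest of 27 control probe sets with no mouse target read 15.8 on the transgenic array, so signals below about that level are near background.

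Collagens are trimers of chains that wind into a triple helix. Fibrillar types I, III and V form the ropes of the dermis and of the connective tissue sheath around the follicle, whereas type IV forms the sheet-like network of the basement membrane between sheath and epithelium. Mesenchymal cells of the dermal sheath, dermal papilla and dermis are known as the main source of the fibrillar types in skin, and both epithelial and mesenchymal cells contribute chains to the basement membrane. In pooled follicles, fewer cells of a type and less RNA per cell cannot be told apart.

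Of the 41 genes, 27 exceeded the floor in both pools, 4 in the transgenic pool alone, 1 in the wild-type pool alone and 9 in neither. Of all 18193 genes, 11566 exceeded it in both pools, 1433 in the transgenic pool alone, 1046 in the wild-type pool alone and 4148 in neither. Col7a1 was the only one of the 27 past 2-fold, with more signal in the transgenic pool, and 0 of the 27 were past 2-fold in the other direction. Over all 11566 genes for which both signals passed the floor, the shares were 1.6% for higher and 1.58% for lower. Col4a4 and Col4a6, among the 4 collagen genes seen only in the transgenic pool, were past 2-fold against the floor, as were 14.9% of all genes seen only there. At 1.5-fold, 5 of the 27 genes were higher and 3 lower (29.6% together, against 13.1% of all genes). The shares of all genes were 6.36% higher and 6.78% lower. The 5 higher genes, Col7a1, Col11a1, Col14a1, Col15a1 and Col27a1, lie in the dim tertile, where the spread is widest. That tertile held 14 of the 27 genes, against 3855 of all 11566. Of the 27 ratios 14 were above 1 and 13 below (48.1%, against 50.1% of all genes). The median log2 ratio was 0.04, with a median of 0.00 over all genes. The log2 ratio was larger than the SD between probe sets in 9 of the 27 genes (33.3%, against 22.3% of all genes) and larger than 2 SD in 1 (3.70%, against 3.69%).

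**Figure D1:**
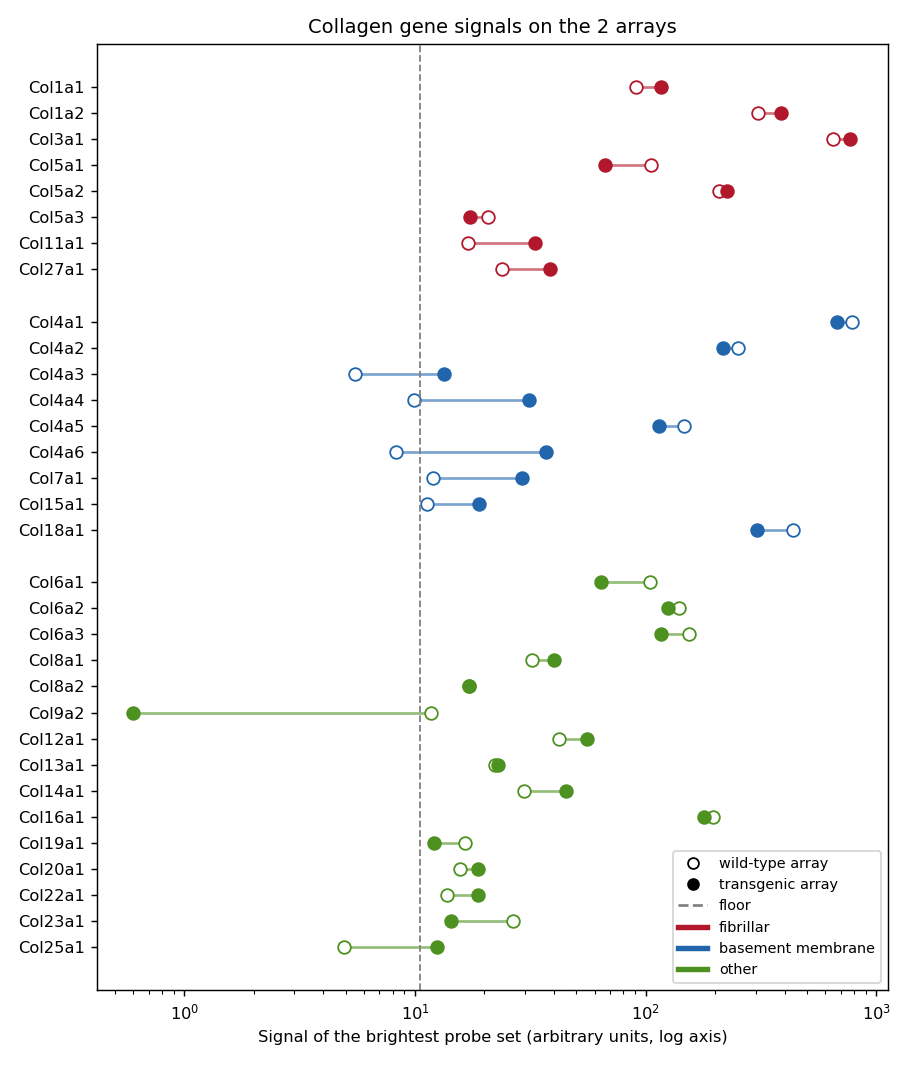
Signal of the brightest probe set of each of the 32 collagen genes above the floor on at least 1 array, on a log axis in arbitrary units; open circles are the wild-type array, filled circles the transgenic array, and the dashed line is the floor of 10.5. Type I and III chains lie to the right on the transgenic array, Col4a1, Col4a2, Col18a1 and the type VI chains to the left, and the widest gaps belong to genes that touch the floor.

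The chains of type I collagen read slightly higher in the transgenic pool, and the direction of type III depended on the probe set. Col1a1, the chain present as a pair in each type I trimer, had a signal of 90.7 in the wild-type pool and 116 in the transgenic pool, which is 1.28-fold more. The other Col1a1 probe set read 61.5 and 117, or 1.91-fold more. Col1a2, the partner chain, read 306 and 386 (1.26-fold), with 143 and 217 (1.52-fold) at its other probe set. All 4 type I probe sets above the floor were thus higher in the transgenic pool, while the ratios of the brightest ones, with log2 values of 0.36 and 0.34, are smaller than the spread between probe sets. Col3a1, the type III chain that co-assembles with type I in skin, read 650 and 766 (1.18-fold higher), but its dimmer probe set went the other way, from 56.5 to 47.2. With both probe sets averaged its log2 ratio was -0.01, and without probe sets that can match several transcripts it was -0.26.

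The chains of type V, which sits inside type I fibrils and limits their diameter, did not move as a set. Col5a1 read 105 and 66.6, which was 1.58-fold lower on the transgenic array, while its further probe sets gave log2 values of -0.35 and 0.04. Col5a2, its usual partner, read 208 and 226, a log2 ratio of 0.12 that became -0.02 when the arrays were scaled to equal medians, and -0.11 at its other probe set. Col5a3 was dim, at 20.7 and 17.3. Other fibrillar genes had larger ratios at dim signals: Col11a1, a chain known from cartilage, read 16.9 and 33.2 (1.96-fold higher; its other probe set reached only 12.1, in the transgenic pool), and Col27a1 read 23.9 and 38.6 (1.61-fold higher, with 1.40-fold at its other probe set). Col2a1, Col11a2 and Col24a1 lay under the floor on both arrays. Of the 8 fibrillar genes above the floor, 6 had a ratio above 1 and 2 below (25%, against 50.1% of all genes). Their median log2 ratio was 0.29. It stayed above 0 under each of 5 other scalings of the arrays, between 0.14 and 0.48, while the median of all genes moved from -0.14 to 0.19 under the same scalings. Of the 5, no rescaling is almost the main setting, because the deposited arrays already shared a trimmed mean of 100.

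Col1a2 and Col3a1 are shown by the 250 bases upstream of their recorded starts, because they are the brightest fibrillar genes and their upstream windows are of different kinds. The sequences are RefSeq's, build GRCm38.p6, 5′ to 3′, in lower case with any CCAAT box (CCAAT or ATTGG), GC box (GGGCGG or CCGCCC) or TATA box (TATAAA or TTTATA) in capitals.
Col1a2 (chr6:4505368-4505617, plus strand): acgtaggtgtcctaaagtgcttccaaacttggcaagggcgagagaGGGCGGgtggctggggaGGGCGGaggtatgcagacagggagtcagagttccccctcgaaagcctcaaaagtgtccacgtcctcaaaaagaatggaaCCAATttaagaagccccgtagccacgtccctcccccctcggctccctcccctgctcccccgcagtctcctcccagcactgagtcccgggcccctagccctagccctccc
Col3a1 (chr1:45311288-45311537, plus strand): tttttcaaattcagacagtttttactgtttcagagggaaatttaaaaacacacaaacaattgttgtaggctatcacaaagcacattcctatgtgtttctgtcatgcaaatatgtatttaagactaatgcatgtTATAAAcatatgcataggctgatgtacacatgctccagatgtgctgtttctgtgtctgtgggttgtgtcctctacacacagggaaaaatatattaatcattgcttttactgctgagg
The Col1a2 window was 62% G and C and held 2 GC boxes and 1 CCAAT box, whereas that of Col3a1 was 35.2% G and C, the lowest share among the members' windows, and held 1 TATA box and none of the others. Windows were found for 32 of the 41 members (35 windows in all). A GC box stood in 60% of them against 32.7% of all 32851 windows of this length, a CCAAT box in 34.3% against 33.9% and a TATA box in 11.4% against 12.4%. The members' windows were also richer in G and C, with a median share of 59.2% against 52.4% of all windows. Motifs were searched on both strands and none overlapped another in the windows printed. A match describes the letters only and says nothing of binding.

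**Figure D2:**
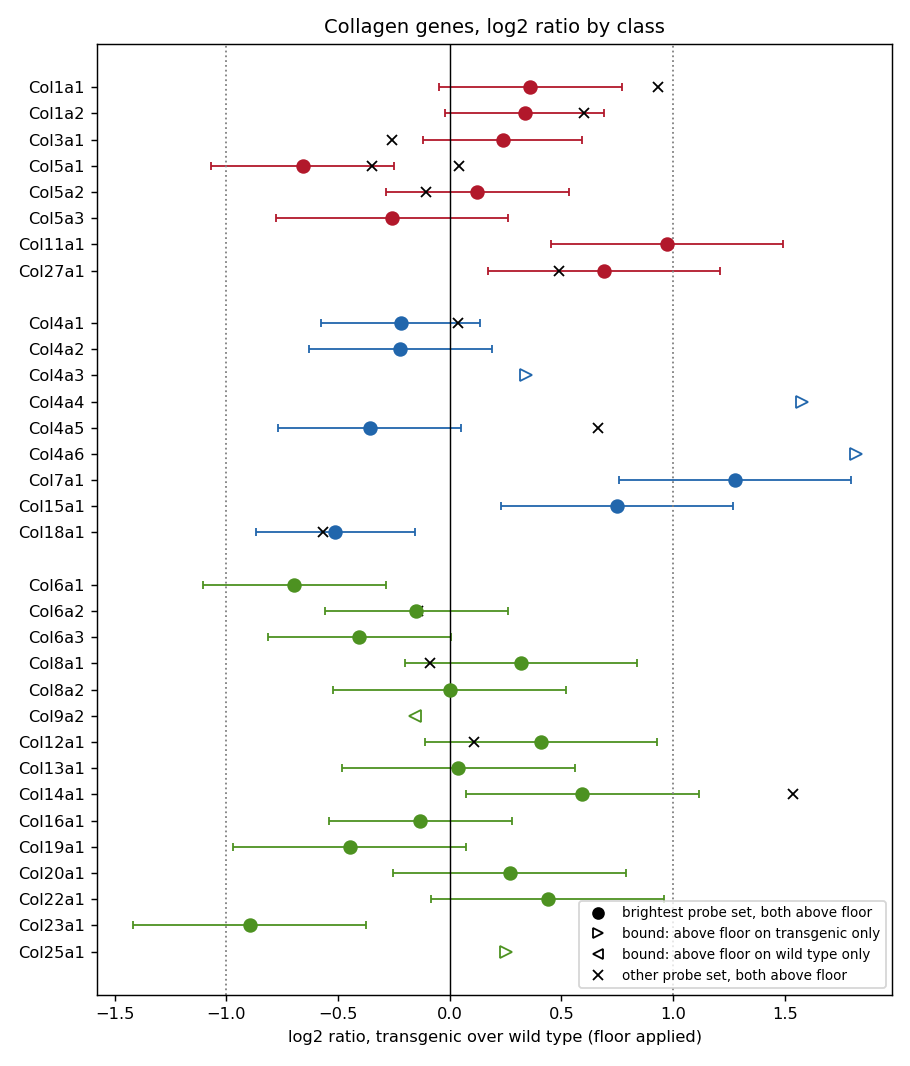
Log2 ratio of transgenic over wild-type signal for the 32 genes, by class; filled circles are brightest probe sets with both signals past the floor and bars of 1 SD of the spread between probe sets of a gene in that signal tertile, open triangles are bounds against the floor, and crosses are other probe sets. The crosses of some or all other probe sets lie across 0 from the circle for Col3a1, Col4a1, Col4a5, Col5a1, Col5a2 and Col8a1, and the bars of most genes reach 0.

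Where more than 1 probe set of a gene passed the floor in both pools, the direction held in all of them for 7 of 13 genes. These were Col1a1, Col1a2, Col12a1, Col14a1 and Col27a1, which were higher, and Col6a2 and Col18a1, which were lower. For the remaining 6 genes the probe sets disagreed in sign, most widely for Col4a5, whose log2 ratios were -0.36 and 0.66. The matching share over all genes was not computed, so the count of 7 of 13 cannot be read as good or poor agreement.

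At their brightest probe sets, the brighter genes of the basement membrane read lower and the dim ones higher. Further probe sets of Col4a1, Col4a4 and Col4a5 went the other way. Col4a1 and Col4a2 encode the chains of the ubiquitous type IV network, in which 2 copies of the former join 1 of the latter. Col4a1 had signals of 784 in wild type and 673 in the transgenic pool, 1.16-fold lower, and Col4a2 had 252 and 216, 1.17-fold lower, both log2 ratios being -0.22. A second probe set of Col4a1 gave a log2 ratio of 0.04. These differences are smaller than the spread between probe sets.

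The 2 genes lie next to each other on opposite strands and are known to share a promoter, so a run next to their starts is shown. In RefSeq's annotation of GRCm38.p6 their starts are 21 bases apart, at chr8:11312826 on the minus strand for Col4a1 and chr8:11312805 on the plus strand for Col4a2, so that the recorded transcripts overlap at their 5′ ends and leave no bases between them. The run below, on the plus strand at chr8:11312761-11312790, carries the CCAAT box, in capitals, that begins 32 bases before the start of Col4a2. It lies upstream of Col4a2 and, by these coordinates, downstream of the recorded Col4a1 start.
Col4a1-Col4a2: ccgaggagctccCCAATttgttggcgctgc
Col4a5 and Col4a6 on the X chromosome are likewise arranged on opposite strands, with recorded starts 1343 bases apart and no shared window, and their ratios were not alike. Col4a5 read 146 and 114 (1.28-fold lower) at its brightest probe set and 35.4 and 56.1 (1.58-fold higher) at the other. Col4a6, a chain of the specialised type IV network found in epidermal basement membranes, read 8.30 and 37.1, at least 3.53-fold higher, and 8.0 and 21.4, at least 2.04-fold higher, so that neither probe set passed the floor in wild type and both did in the transgenic pool. The pools also differed in sex-linked RNA: Xist had signals of 352 and 1146, and the Y-linked Eif2s3y had 191 in the wild-type pool and 0.40 in the transgenic pool. The Y-linked Kdm5d read 55.3 and 8.60. With 1 pool per genotype, differences of sex and of genotype cannot be told apart, for the X-linked chains or for any other gene.

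Col18a1, whose protein carries heparan sulphate chains in basement membranes and gives rise to endostatin, was the basement membrane gene with the clearest lower signal. It read 435 and 305 (1.43-fold lower), and its other probe set gave 427 and 288 (1.48-fold lower). The log2 ratio of -0.51 is 1.44 times the spread between probe sets, and it lay between -0.66 and -0.32 under the other scalings. RefSeq records an outer and an inner start of Col18a1, and the array annotation ties neither probe set to a start. The 250 bases before the outer start (chr10:77166531-77166780, minus strand) are printed because they hold 3 GC boxes and 1 CCAAT box, while those before the inner start hold 0 of the motifs searched.
Col18a1, outer start: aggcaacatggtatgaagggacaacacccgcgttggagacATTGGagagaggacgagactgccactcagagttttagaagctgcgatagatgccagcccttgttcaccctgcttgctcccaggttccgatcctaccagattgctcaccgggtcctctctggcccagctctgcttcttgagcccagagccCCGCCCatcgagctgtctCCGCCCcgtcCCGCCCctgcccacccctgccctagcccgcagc

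The other genes of this class were near the floor. Col7a1, which encodes the anchoring fibrils that tie the basement membrane to the dermis, read 12 and 29.1 (2.42-fold higher), with 1 probe set. Col15a1, a relative of Col18a1, read 11.3 and 19.0 (1.68-fold higher). Col4a3 and Col4a4, chains known from kidney basement membrane, passed the floor in the transgenic pool alone, at 13.3 and 31.3. Col4a4 was at least 2.98-fold higher, but a second probe set went the other way, from 19.5 to under the floor, at least 1.86-fold lower. Of the 6 genes past the floor in both pools, 4 had a ratio below 1 (66.7%, against 50.1% of all genes). The median log2 ratio was -0.22, from -0.36 to -0.03 under the 5 other scalings. That sign rests on which probe sets are read: with each gene's probe sets averaged the median was 0.03, and with a floor at the 20th percentile, which admits Col4a3, Col4a4 and Col4a6, it was 0.75.

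**Figure D3:**
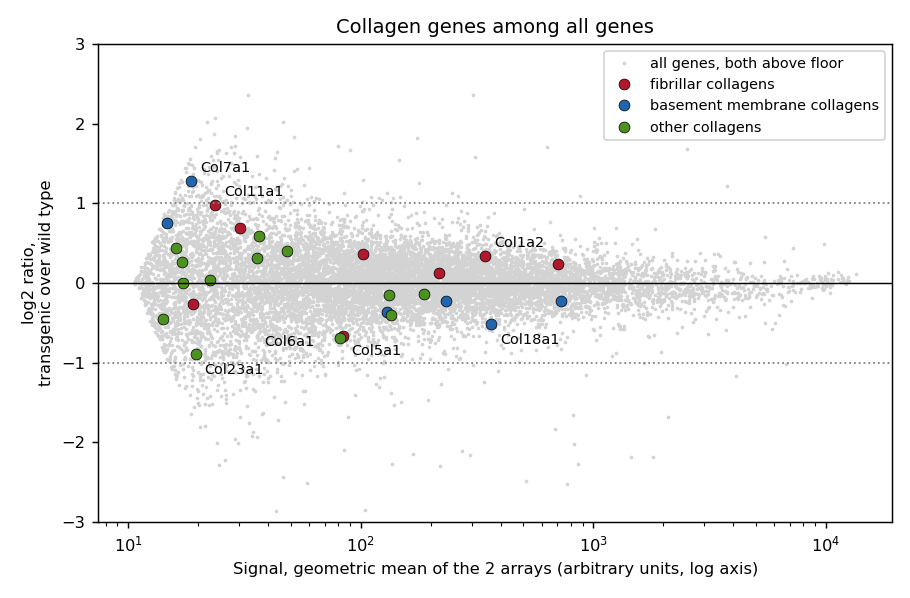
Log2 ratio of transgenic over wild-type signal against the geometric mean signal of both arrays (log axis, arbitrary units) for 11561 of the 11566 genes past the floor in both pools, with the collagen genes coloured by class; 5 genes beyond a log2 ratio of 3 either way are outside the axis. Col7a1 is the only coloured point past the dotted 2-fold lines, and it lies in the dim range, where most of the grey points past those lines lie.

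Among the other types, the chains of type VI read lower together. Type VI collagen forms beaded microfibrils around cells from 1 chain each of Col6a1, Col6a2 and Col6a3. Col6a1 read 104 and 64.3 (1.62-fold lower), Col6a3 read 155 and 117 (1.32-fold lower), and Col6a2 read 139 and 125 (1.11-fold lower, with 1.10-fold at its other probe set). The direction of Col6a2 turned with the scaling to equal spiked controls, where its log2 ratio was 0.04, while those of Col6a1 and Col6a3 stayed at -0.50 and -0.21. Col6a4, Col6a5 and Col26a1 lay under the floor on both arrays. The window before Col6a1 (chr10:76726045-76726294, minus strand) held none of the 3 motifs, whereas both windows of Col6a2 held GC boxes.

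The collagens that decorate fibrils, known as FACIT types, were mostly dim. Of 7 above the floor on at least 1 array, 4 had a ratio above 1 (57.1%, against 51.3% of all genes). Col14a1, which binds the surface of type I fibrils in skin, read 29.8 and 45.0 (1.51-fold higher) and 10.9 and 31.6 (2.90-fold higher) at its other probe set. Col12a1, a close relative found in dense connective tissue, read 41.9 and 55.6 (1.33-fold higher), with 18.9 and 20.4 at the other. Col16a1, a minor fibril component, read 195 and 178, a log2 ratio of -0.13 that turned to 0.06 with equal spiked controls. Col20a1 read 15.6 and 18.8, Col22a1 read 13.8 and 18.7 and Col19a1 read 16.5 and 12.1, all close to background. The cartilage chains Col9a1 and Col9a3 lay under the floor on both arrays, and Col9a2 read 11.7 on the wild-type array only.

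The network and transmembrane types gave no 2-fold difference. Col8a1, a short chain of vascular and other basement membranes, read 32.2 and 40.2 (1.25-fold higher), against a log2 value of -0.09 for its second probe set, and Col8a2 read 17.2 on each array. Of the transmembrane types, Col23a1 read 26.6 and 14.3, the lowest log2 ratio among the 27 genes at -0.90, and reached 2-fold with equal medians (-1.04). Its other 2 probe sets also read lower on the transgenic array, but each lay at or under about the floor. Col13a1 read 22.3 and 22.9, and Col25a1 read 12.5 on the transgenic array only. Col10a1, the collagen of growth plate cartilage, lay under the floor on both arrays. The median log2 ratio of the 13 other types above the floor on both arrays was 0.00. Of their ratios, 7 were below 1 (53.8%, against 50.1% of all genes).

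Direction varied with signal among the members. Of the 14 members in the dim tertile, 10 had a ratio above 1 and the median log2 ratio was 0.36, whereas of the 9 in the middle tertile 7 had a ratio below 1 and the median was -0.22. In the bright tertile, Col1a2 and Col3a1 were higher and Col4a1 and Col18a1 lower. Over all genes the same tertiles had 52.3%, 50.5% and 47.0% of ratios above 1 and medians of 0.03, 0.00 and -0.02. Controls with no mouse target also reached higher signals on the transgenic array, and the part of this in the dim ratios was not tested. With an intensity-dependent correction (loess) the median over the 27 members was -0.08, and the fibrillar and basement membrane medians stayed 0.51 apart on the log2 scale.

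Genes whose products make, bind and degrade collagen are given for comparison, from lists drawn up by function. Of 14 genes of hydroxylation and folding with both signals past the floor, 1 was past 2-fold upward and 0 downward (1.6% and 1.58% of all genes), and their median log2 ratio was 0.01. P4ha2, a prolyl hydroxylase subunit, read 11.0 and 26.4, and Plod2, the lysyl hydroxylase of telopeptides, read 111 and 177 (0.68, with 0.59 at its other probe set). P3h2, a prolyl 3-hydroxylase of basement membrane collagen, read 40.3 and 21.1 (-0.93), and the collagen chaperone Serpinh1 read 255 and 201 (-0.34). Plod1 and P3h1 passed the floor in the wild-type pool alone and were at least 2-fold lower, as were 14.5% of all genes seen there alone, with log2 ratios of -1.48 and -1.20, although a second probe set of Plod1 gave -0.12. P4hb and Ppib, general folding enzymes of the endoplasmic reticulum, had log2 ratios of 0.00 and 0.01.

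Of 7 genes of procollagen processing and cross-linking, 5 had a ratio below 1 (71.4%, against 50.1% of all genes). Their median was -0.38, and 0 passed 2-fold (1.6% higher and 1.58% lower over all genes). Bmp1, the procollagen C-proteinase, read 157 and 98.3 (-0.67, with -0.29 at its other probe set). Tgm2, a transglutaminase, read 77.8 and 56.4 (-0.46, against -0.86, 0.58 and -0.05 for further probe sets). The lysyl oxidase relatives Loxl3 and Loxl4 had log2 ratios of -0.69 and 0.59 at signals near the floor. The median of this list stayed below 0 under the 5 other scalings, from -0.50 to -0.23, and was -0.17 with the mean or median over probe sets.

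Among 17 proteoglycans and matricellular proteins, 11 had a ratio below 1 (64.7%, against 50.1% of all genes). The median was -0.21, which became 0.05 with the floor at the 60th percentile and 0.11 with a floor of 50. Dcn, which encodes decorin, a proteoglycan that coats type I fibrils, went against the list at 985 and 1590, a log2 ratio of 0.69, as did Dpt (0.49). Tgfbi read 39.2 and 19.8 (-0.99, with -0.18 and -0.55 at further probe sets) and Eln, the elastin gene, 32.6 and 19.0 (-0.78). Sparc, a collagen-binding protein of mesenchyme, read 903 and 709, but its second probe set was level, with a log2 ratio of 0.02.

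Of 9 partners of type IV collagen in the basement membrane, 1 was past 2-fold upward and 0 downward (1.6% and 1.58% of all genes). Their median was -0.15, which became 0.04 with equal spiked controls. Lamb1, a laminin beta chain, read 493 and 301 (-0.71, with -0.18 and -0.38 at further probe sets). Nid1, which links laminin to type IV collagen, read 48.7 and 34.1 (-0.51), and Lamc1 went the other way at 87.3 and 129 (0.56). Lama2, the laminin chain of muscle and nerve, read 13.6 and 39.6 (1.54) near the floor. Collagen receptors were within 1.2-fold in 5 of 5 genes above the floor on both arrays, as were 58.0% of all genes. Their median of 0.09 became -0.06 with equal medians and -0.18 without probe sets that can match several transcripts. Ddr2 (0.24) and Itgb1 (-0.22) lay farthest out, followed by Itga1 (-0.18) and Mrc2 (0.15), but a dimmer Ddr2 probe set read 15.9 and 32.0 (1.01) and the other probe sets of Ddr1 ranged from -0.41 to 1.13. Of 7 proteases and inhibitors, 0 passed 2-fold upward or downward (1.6% and 1.58% of all genes). Mmp2, a gelatinase, read 62.3 and 39.3 (-0.67, with -0.65 at its other probe set), Ctsk 22.8 and 33.8 (0.57), Timp2 939 and 703 (-0.42, with values from -0.66 to 0.14 at its other probe sets) and Timp1 38.1 and 28.6 (-0.41). The collagenases Mmp1a, Mmp1b, Mmp8 and Mmp13 lay under the floor on both arrays.

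**Figure D4:**
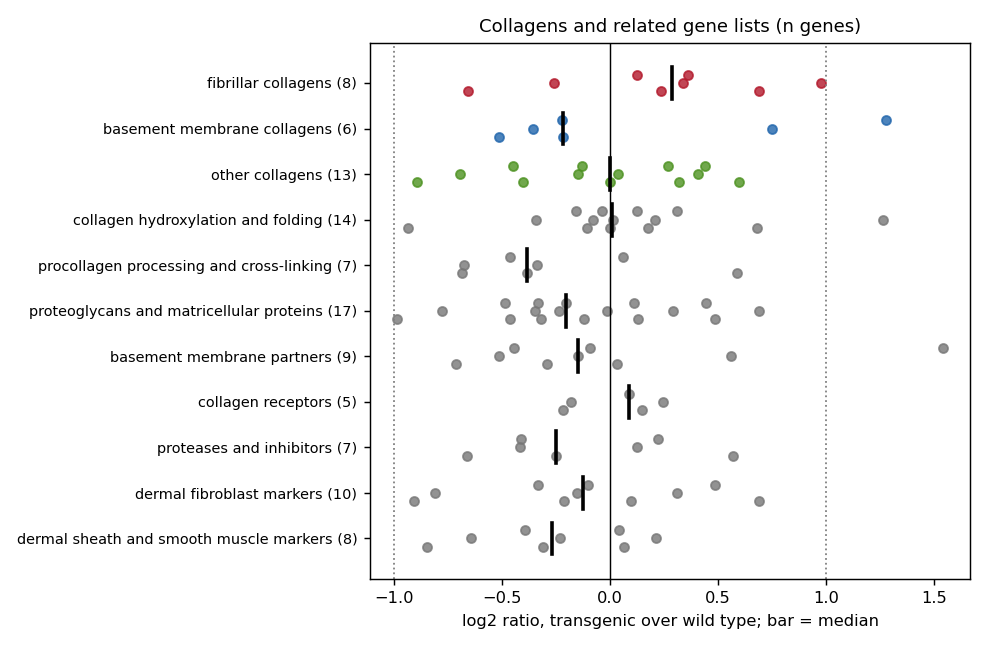
Log2 ratio of transgenic over wild-type signal for collagen classes and related gene lists, 1 point per gene above the floor on both arrays, with the number of genes in brackets, bars for medians and dotted lines at 2-fold. Medians lie between -0.38 for processing and cross-linking and 0.29 for fibrillar collagens, and each list spreads across 0.

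Markers of cells found in and around the follicle also differed between the pools, and their part in the collagen values was not tested. Of 10 markers of dermal fibroblasts above the floor on both arrays, 6 had a ratio below 1 (60%, against 50.1% of all genes). Their median log2 ratio was -0.13, which became 0.07 with equal spiked controls and 0.29 with a floor of 50. Summed over all 12 markers listed, the signal was 1687 in wild type and 2247 in the transgenic pool, the latter raised by Dcn. Pdgfrb read 72.8 and 41.5 (a log2 ratio of -0.81, with -0.19 at its other probe set). Cd34 read 77.6 and 41.4 and Pdgfra 51.6 and 46.4, while Twist2 passed the floor in the transgenic pool alone. Of 8 markers of dermal sheath and smooth muscle above the floor, 5 were lower (62.5%, against 50.1% of all genes). Their median of -0.27 stayed below 0 under the other scalings, and the sum over all 10 listed was 1635 and 1320. Acta2, the smooth muscle actin of the sheath, read 933 and 752, and Cnn1 and Des lay under the floor on both arrays. Mylk read 75.8 and 42.1, but a dimmer Mylk probe set was nearly level (23.2 and 22.6). Rgs5 read 156 and 99.4, while dimmer Rgs5 probe sets gave log2 values of -0.05 and 0.30. Cspg4 was higher in the transgenic pool, at 77.1 and 89.3, and a dimmer Cspg4 probe set rose from 69.9 to 96.0. Averaging over probe sets brought the median of this sheath list to -0.10. Dermal papilla markers had a median of 0.13 over 7 genes, which became -0.01 with equal medians, and a sum over all 12 listed of 629 and 693. Of the 7 genes, 6 had a ratio above 1 and 1 below (14.3%, against 50.1% of all genes). Rspo3 read 14.7 and 34.9 (2.37-fold higher), whereas Alpl read 45.5 and 26.9 (1.69-fold lower). Sox18 and Fgf7 passed the floor in the wild-type pool alone, at least 2.50-fold and 1.66-fold lower. Sox2 lay under the floor on both arrays.

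Endothelial markers had a median of -0.14 over 6 genes, which became 0.05 with equal spiked controls, and a sum over all 10 listed of 223 and 218; Cdh5 read 13.7 and 42.3 (3.09-fold higher), Cldn5 41.4 and 27.4, and Pecam1 lay under the floor. Schwann cell markers had a median of -0.57 over 5 genes, with S100b at 45.3 and 21.7 and Ngfr at 54.2 and 27.7; the median was 0.18 with the floor at the 60th percentile or at 50, and the sum of 1317 and 1404 was mostly Erbb3. The adipocyte sum was 7382 and 5246, and almost all of it was Fabp4, at 7211 and 5108. Adipoq read 139 and 65.3, whereas the other 4 of the 6 measured adipocyte markers had ratios above 1, among them Lep, at least 2.54-fold higher. All 5 of the immune markers above the floor on at least 1 array were higher in the transgenic pool (51.3% of all genes). H2-Aa (at least 4.04-fold) and C1qa passed the floor there alone, so their ratios could only be above 1. Cd74 read 11.2 and 22.9 and Adgre1 11.8 and 19.3, with wild-type signals near background. The sum over all 8 listed was 71.6 and 158, and Ptprc lay under the floor. Of 8 skeletal muscle markers, 4 passed the floor in the transgenic pool alone, as did 1433 of all 18193 genes. Acta1 among them was at least 3.55-fold higher. The 2 above the floor in both pools, Mylpf and Actn3, were lower. Of 7 epidermal keratinocyte markers, Krt77 was 3.84-fold higher at 16.6 and 63.8, Lor 1.65-fold higher and Krt10 at 149.8 and 225, while Krt15 was 1.34-fold lower and the list's median was 0.06. Of 4 cartilage markers above the floor on at least 1 array, 3 had a ratio above 1 and 1 below (75% above, against 51.3% of all genes). The 2 above the floor on both arrays were Acan, with a log2 ratio of 0.50, and Sox9, with -0.21. Further Sox9 probe sets gave 0.16 and 0.25. Comp (at least 2.09-fold higher) and Matn1 passed the floor in the transgenic pool alone, so their ratios could only be above 1. The cartilage collagen Col2a1 was at 2.90 and 3.10. Markers of the hair follicle itself, such as Krt31, Krt71 and Tchh, were present on both arrays in 10 of 10 genes, with a median log2 ratio of 0.03.

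**Figure D5:**
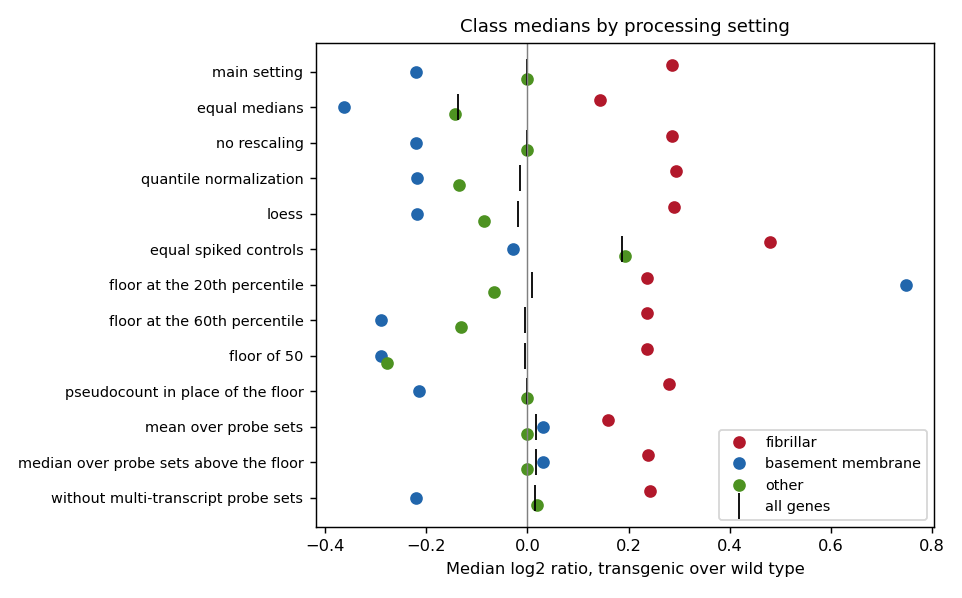
Median log2 ratio of each collagen class (points) and of all genes (vertical ticks) under the main setting and each alternative scaling, floor or choice of probe set. The fibrillar median lies to the right of 0 in each setting drawn, from 0.14 to 0.48, and the basement membrane median lies to the left except with the floor at the 20th percentile and with the mean or median over probe sets.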

How the data were processed

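Total RNA of pooled hair follicles went onto 1 mouse expression array per genotype, per the labels' protocols. The authors deposited a linear intensity for each probe set. The values of each array have a 2% trimmed mean of 100, which shows a global scaling. The summary algorithm is not given in the sources used here. Such scaling hides a shift shared by all genes.

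The 64 control probe sets were left out, and 45037 of 45101 remained. Of these, 34945 had 1 gene symbol, 932 several and 9160 none; genes were named only from those with 1 symbol. All 41 collagen symbols matched a RefSeq gene table of GRCm38.p6 by gene identifier. Both arrays were set to the same trimmed mean, signals under the floor (40th percentile, 10.5) were set to it, and ratios are transgenic over wild type. A ratio against the floor is a bound, written "at least". No coordinate comes from the arrays. Every collagen gene above the floor on at least 1 array is named, and from each of the 6 lists of collagen-related function up to 4 genes above the floor on both arrays with the largest absolute log2 ratio and those at least 2-fold apart; P4hb, Ppib, Sparc and the cell type markers were named after their values were seen. The genes, lists and alternatives were chosen with earlier results of these data known. The steps were tested on simulated data, with changes planted only in genes well above the floor and with less noise than the spread between probe sets. That test does not cover the dim genes. Python 3.11.15, pandas 2.3.3, SciPy 1.17.1 and statsmodels 0.14.6 were used. Alternatives were other scalings, floors, a pseudocount, other choices of probe set and other fold thresholds.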

Additional observations from a re-analysis of the deposited data

How the results depend on the processing

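With 1 array per genotype, no library could be left out. No paired analysis was possible because there is 1 array per group and no test. The number of collagen genes at least 2-fold higher on both arrays (1, Col7a1) was 2 with equal spiked controls, with the median over probe sets and without probe sets that can match several transcripts, 5 with the floor at the 20th percentile, 5 at a 1.5-fold threshold, and 0 with a floor at the 60th percentile, a floor of 50, a pseudocount or a 3-fold threshold. The number lower (0) was 1 with equal medians, quantile normalization, loess or the floor at the 20th percentile, and 3 at 1.5-fold. The number at least 2-fold from the floor on 1 array alone (2) was 3 with the floor at the 20th percentile or a pseudocount, 1 with the mean or median over probe sets and at 3-fold, and 0 with the floor at the 60th percentile or at 50.

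The median log2 ratio of the collagen genes (0.04) was -0.10 with equal medians, -0.077 with quantile normalization and -0.079 with loess, 0.21 with equal spiked controls, -0.14 with the floor at the 60th percentile and -0.22 with a floor of 50, so that its sign is not settled. The fibrillar median was 0.48 and that of the other types 0.19 with equal spiked controls, and the latter was -0.28 with a floor of 50. The basement membrane median was 0.75 with the floor at the 20th percentile and 0.032 with the mean or the median over probe sets, and the distance of the fibrillar from the basement membrane median (0.51) was then -0.51, 0.13 and 0.21. Of the 32 genes above the floor, 27 kept their sign under all 5 other scalings, of which no rescaling is almost the main setting. Col5a2, Col6a2, Col8a2, Col13a1 and Col16a1 did not. The 27 include Col4a3, Col4a4, Col4a6, Col9a2 and Col25a1, which passed the floor on 1 array alone. Their ratios are bounds, whose sign cannot change while the other signal stays under the floor, so they say nothing of stability. Without probe sets that can match several transcripts, Col3a1 had a log2 ratio of -0.26. The cause was not tested for any of these, beyond the dim genes that a floor admits or removes. With 1 array a group, precision is limited throughout.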
